A study of Mus musculus with 16 samples.

Results

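Brown adipocytes are set up and kept by a small circuit of transcription regulators, and 10 of its genes are described here in brown fat from between the shoulder blades of C57BL/6J mice. The genes were Ppargc1a, Ppargc1b, Prdm16, Ebf2, Esrra, Esrrg, Pparg, Ppara, Cebpa and Cebpb, chosen by name and matched through the Ensembl identifiers of the deposited values. All 10 had a value in every library, out of 15350 genes in all. Tissue came from wild-type (WT) mice and from mice lacking the uncoupling protein gene Ucp1 (KO), and in each genotype an implanted minipump delivered either saline or the beta-adrenergic receptor agonist isoproterenol (60 mg per kg body weight daily) for 3 days. The resulting groups, WT saline, WT isoproterenol, KO saline and KO isoproterenol, held 4 libraries each. The labels give no age or sex, no housing temperature, and neither the part of Ucp1 that is deleted nor whether each library stands for its own animal, so p-values measure the spread between these libraries, which may be partly technical.

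PGC-1alpha and PGC-1beta, the products of Ppargc1a and Ppargc1b, are coactivators that bind no DNA themselves and work through nuclear receptors, among them the estrogen-related receptors ERRalpha and ERRgamma (Esrra, Esrrg) and the peroxisome proliferator-activated receptors PPARgamma and PPARalpha (Pparg, Ppara). PRDM16 and EBF2 hold precursor cells and mature cells to the brown fate, while PPARgamma and the CCAAT/enhancer-binding proteins C/EBPalpha and C/EBPbeta (Cebpa, Cebpb) drive the general adipocyte program. In brown fat, noradrenaline acting through cyclic AMP is known to raise Ppargc1a within hours, partly through cyclic AMP response elements (CRE), which the factor CREB binds, and ERR and PPAR factors are known for genes of respiration and of fatty acid oxidation.

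The stretches of DNA just upstream of 4 of these genes are shown because their results in KO mice under isoproterenol contrast: Ppara had the largest fall, Cebpa the smallest adjusted p, and Ppargc1a and Cebpb did not pass the test. Each is the 250 bases before the gene's transcription start in RefSeq (build GRCm38.p6), written along the gene's own strand, with matches to 5 searched motifs in capitals.
Ppargc1a, chr5:51567726-51567975, minus strand: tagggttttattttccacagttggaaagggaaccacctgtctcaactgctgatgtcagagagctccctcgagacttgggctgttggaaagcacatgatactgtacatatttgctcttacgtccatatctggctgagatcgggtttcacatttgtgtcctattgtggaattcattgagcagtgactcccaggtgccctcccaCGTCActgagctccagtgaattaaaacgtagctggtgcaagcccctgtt
Ppara, chr15:85735526-85735775, plus strand: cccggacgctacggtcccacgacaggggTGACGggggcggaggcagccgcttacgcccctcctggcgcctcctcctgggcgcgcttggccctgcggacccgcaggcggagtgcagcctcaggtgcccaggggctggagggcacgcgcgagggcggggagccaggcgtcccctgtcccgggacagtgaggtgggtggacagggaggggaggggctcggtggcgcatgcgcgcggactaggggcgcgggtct
Cebpa, chr7:35119043-35119292, plus strand: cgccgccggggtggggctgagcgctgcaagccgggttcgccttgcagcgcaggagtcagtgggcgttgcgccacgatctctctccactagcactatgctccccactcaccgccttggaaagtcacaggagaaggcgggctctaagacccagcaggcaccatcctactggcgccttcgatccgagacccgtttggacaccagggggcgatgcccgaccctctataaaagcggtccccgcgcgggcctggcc
Cebpb, chr2:167688665-167688914, plus strand: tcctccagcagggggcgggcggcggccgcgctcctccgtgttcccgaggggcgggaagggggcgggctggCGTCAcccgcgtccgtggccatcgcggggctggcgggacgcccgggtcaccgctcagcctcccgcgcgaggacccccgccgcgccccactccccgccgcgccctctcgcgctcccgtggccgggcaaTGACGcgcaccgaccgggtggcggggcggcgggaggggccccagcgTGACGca
The motifs were the full CRE (TGACGTCA), its core (TGACG), the extended ERR element (TCAAGGTCA), the nuclear receptor hexamer (AGGTCA) and a C/EBP palindrome (TTGCGCAA), searched on both strands; a full CRE contains the core, and the ERR element contains the hexamer. Ppargc1a held 1 CRE core, read on the opposite strand at -49 from the start, and Ppara held 1 at -222. Cebpb held 3, at -180, -53 and -7, and Cebpa held none of the motifs. Of the 32851 mouse windows of that length, 17.8% held a CRE core, 1.55% a full CRE, 0.387% the ERR element, 14.0% the nuclear receptor hexamer and 0.164% the C/EBP palindrome. RefSeq windows were matched for 8 of the 10 genes (13 windows in all), and 2 start sites of Pparg each held a nuclear receptor hexamer, at -28 and -9. Pparg, which did not pass the test either and is not shown, held no CRE core in any window. The windows of Prdm16, Esrra and Esrrg held none of the motifs. CRE cores thus lay only in windows of Ppargc1a, Ppara and Cebpb, all of them among the 4 genes shown. A match is a stretch of letters and not a measured binding site.

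Recovered reads over the listed genes numbered 9004515 to 20986735 per library, and levels are given as CPM, reads relative to the library size as the authors scaled it. The fewest reads behind any value of the 10 genes were 36, for Esrrg in KO isoproterenol replicate 1. Transcripts of Ucp1 itself ran from 410 to 1156 CPM in KO saline against 2298 to 3449 in WT saline, and from 19.0 to 2129 in KO isoproterenol against 8905 to 18458 in WT isoproterenol, so the genotypes did not overlap under either treatment. With the deleted part of the gene not given, reads from a remaining part cannot be told apart from residual transcript of the whole gene. Cell type markers moved with KO isoproterenol: the summed level of 10 markers shared by all adipocytes ran from 4239 to 44664 CPM there against 25244 to 27522 in KO saline, with 0 of 10 called higher and 7 lower. The 10 macrophage markers summed to 1072 to 8186 CPM there against 353 to 647, with 10 called higher, and the 7 measured of 8 neutrophil markers to 71.7 to 468 CPM against 7.29 to 11.7, with 6 called higher. None of these markers was at 0 reads in all 4 libraries of any group. In these bulk samples fewer adipocytes and less RNA per adipocyte cannot be told apart, and the part of the cell mixture in the results below was not tested. Skeletal muscle markers varied within every group, for example from 7.70 to 2836 CPM in WT isoproterenol.

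A fold change is a difference of mean log2 CPM with its standard error (SE), from 1 limma model of the 4 group means, and a gene was called at a Benjamini-Hochberg adjusted p under 0.05 over all 15350 genes. In WT mice, isoproterenol for 3 days led to a call for none of the 10 genes by that rule (limma). None had an unadjusted p under 0.05, and none was called in a fit with voom weights. Over all genes, 7.60% were called higher and 8.98% lower in that comparison. The model shares 1 estimate of each gene's spread over the 4 groups. For Ppargc1a the SD of log2 CPM was 2.93 in KO isoproterenol against 0.19 and 0.55 in the WT groups. For Ppara it was 2.27 against 0.44 and 0.53. With the WT groups alone in the fit, Ppara and Ppargc1b were called lower and Esrra higher, beside 2422 and 2501 of all genes. Deviations of same-numbered WT libraries from their group means correlated at 0.210 to 0.535, though replicate 1 correlated more with another number (up to 0.371). A fit of the WT libraries alone with the replicate number as a block was added after seeing the data. It called Ppara, Ppargc1b and Esrrg lower and Esrra higher, beside 2646 and 2651 of all genes. With that block in WT and all 16 libraries in the fit none of the 10 was called. In KO mice 7 of the 10 fell under isoproterenol (Ppargc1b, Prdm16, Ebf2, Esrra, Esrrg, Ppara and Cebpa) and none rose, against 24.8% of all genes called lower and 23.8% higher. Prdm16 and Ebf2 turned to 0.28 and 0.31 when values were set relative to the pan-adipocyte markers, where the median of all genes was 1.31. KO and WT did not differ under saline in any of the 10 by the test (1 unadjusted p under 0.05, for Prdm16, and none called with voom weights), where 0.0717% of all genes were called higher and 0.0261% lower. Under isoproterenol 8 of the 10 were lower in KO than in WT and none was higher, against 23.1% and 21.6% of all genes, though Prdm16, Ebf2 and Cebpb turned to 0.41, 0.26 and 0.48 relative to the pan-adipocyte markers. That scaling moved the median of all genes to 1.18 in this comparison, with 6307 called higher and 419 lower, so these values lay below that median. That count of 8 was 5 without WT isoproterenol replicate 3, 4 without WT isoproterenol replicate 4 and 5 when libraries were scaled by their totals. It was 2 (Esrra and Cebpa) with only the 2 groups compared in the fit and 1 (Ppara) relative to the pan-adipocyte markers. The count of 7 in KO was 4 with only the KO libraries in the fit and 2 relative to the pan-adipocyte markers. Scaling by totals also moved the split over all genes, from 3647 higher and 3813 lower to 4493 and 2939 in KO, from 3311 and 3542 to 5030 and 2527 in KO against WT under isoproterenol, and from 1167 and 1379 to 770 and 1748 in WT. The median log2 fold change of the 10 was -1.28 in KO under isoproterenol and -1.31 in KO against WT under isoproterenol, beside -0.00 and 0.02 over all genes. Both comparisons share the KO isoproterenol libraries.

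**Figure D1:**
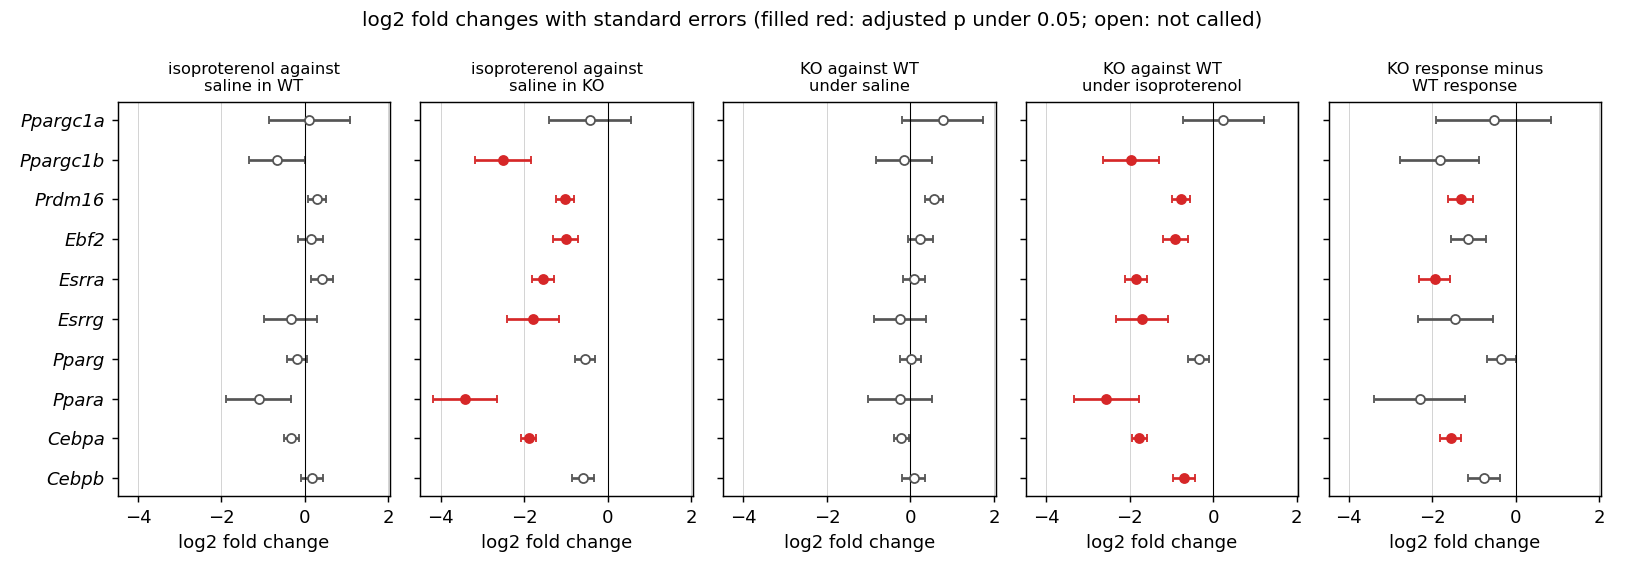
Points give the log2 fold change of each regulator in the 4 pairwise comparisons and in the difference of the isoproterenol responses, with bars of 1 standard error from limma over 16 libraries. Filled red points were called, 7 for isoproterenol in KO, 8 for KO against WT under isoproterenol, 3 for the difference of the responses and 0 elsewhere.

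Of the coactivator genes, Ppargc1b fell under isoproterenol in KO mice and Ppargc1a passed no comparison. Ppargc1a measured 57.7, 53.1, 53.2 and 42.5 CPM in the WT saline libraries (replicates 1 to 4), 34.1, 51.7, 62.1 and 85.0 in WT isoproterenol, 155, 50.6, 132 and 56.7 in KO saline, and 3.40, 114, 137 and 341 in KO isoproterenol. WT isoproterenol thus spread on both sides of the tight WT saline values, KO saline fell into a high and a low pair of libraries, and KO isoproterenol held both the lowest and the highest of the 16 values, 100.4-fold apart. No comparison passed the test: the log2 fold change was 0.11 ± 0.97 (SE, adjusted p = 0.958) in WT and -0.42 ± 0.97 (adjusted p = 0.749) in KO, where the mean CPM was the higher one under isoproterenol (149 ± 141 against 98.7 ± 52.9, SD, n = 4). The sign in KO rested on replicate 1, the library with 3.40 CPM: without it the log2 fold change was 1.0 (adjusted p = 0.0676), and KO exceeded WT under isoproterenol by 1.66 (adjusted p = 0.00571, against 0.24 and 0.857 with all libraries).

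Ppargc1b measured 92.5, 95.2, 129.6 and 143 CPM in WT saline, 52.6, 61.9, 93.6 and 81.9 in WT isoproterenol, 137, 140.1, 83.3 and 67.3 in KO saline, and 2.5, 23.0, 27.7 and 65.8 in KO isoproterenol. Every KO isoproterenol library lay below every KO saline library, and all but replicate 3 of WT isoproterenol lay below the WT saline range. The fall in KO was -2.50 ± 0.67 on the log2 scale (adjusted p = 0.00657), and in WT the change of -0.68 ± 0.67 did not pass (adjusted p = 0.543). With only the libraries of each comparison in the fit these became adjusted p = 0.0534 and 0.0263, so the KO call was lost and the WT call gained. The 4 same-numbered WT pairs gave -0.81, -0.62, -0.47 and -0.80. With the replicate block in that fit of the WT libraries the adjusted p was 0.000752. Without KO isoproterenol replicate 1 the KO value was -1.55 (adjusted p = 0.00189). KO was lower than WT under isoproterenol by -1.97 ± 0.67 (adjusted p = 0.0263), a value of -1.02 without that library and a call that was lost without WT isoproterenol replicate 3 (0.0663) or 4 (0.0602) or with the 2 groups alone in the fit (0.109).

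Dividing one coactivator by the other within each library takes out anything that scales both alike, and gene length cancels when groups are compared. The ratio of Ppargc1a to Ppargc1b was 0.624, 0.558, 0.410 and 0.299 in WT saline, 0.648, 0.835, 0.664 and 1.04 in WT isoproterenol, 1.13, 0.361, 1.59 and 0.843 in KO saline, and 1.36, 4.96, 4.97 and 5.19 in KO isoproterenol. Groups did not overlap between WT saline and WT isoproterenol or between WT and KO under isoproterenol, and KO isoproterenol replicates 2 to 4 agreed closely although Ppargc1a itself ran from 114 to 341 CPM in them. On the log2 scale the ratio differed by 0.78 in WT (exact two-sided permutation test over 70 arrangements, p = 0.0286, the smallest it can give) and by 2.08 in KO (p = 0.0571), and was 2.22 higher in KO than in WT under isoproterenol (p = 0.0286). Over the 16 ratio comparisons made, the Benjamini-Hochberg adjusted values of these permutation tests were 0.0762, 0.102 and 0.0762, so none passed 0.05.

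**Figure D2:**
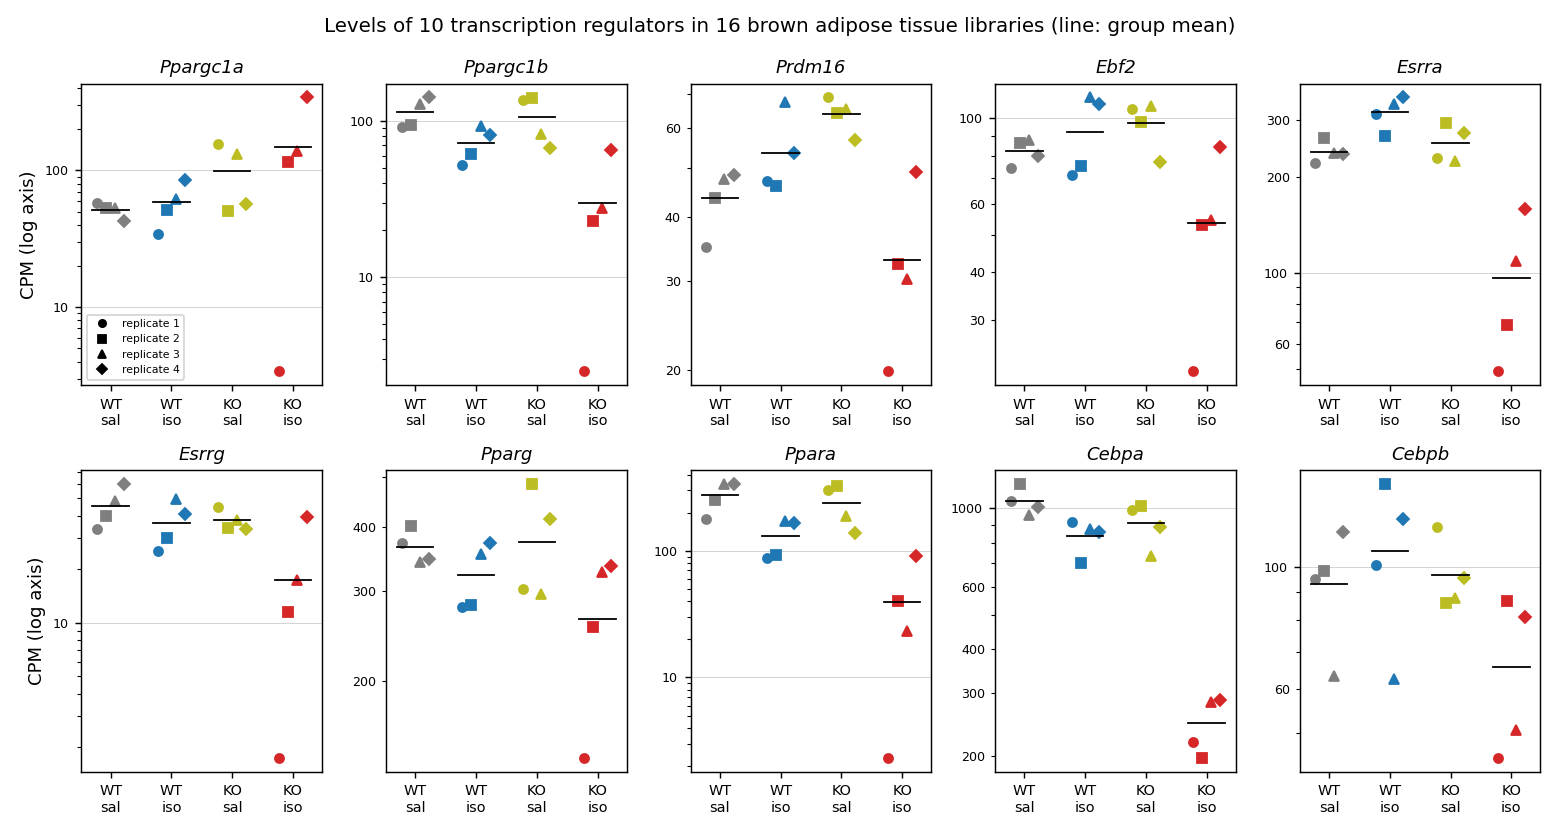
Each panel gives the CPM (log axis) of 1 regulator in the 16 libraries, 4 per group (sal, saline; iso, isoproterenol), with the symbol marking the replicate number and the line the group mean. Cebpa sits between 197 and 288 CPM in all 4 KO isoproterenol libraries, while Ppargc1a spreads from 3.40 to 341 there.

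Prdm16 and Ebf2, the regulators of brown identity, fell by about the same amount in KO mice. Prdm16 measured 35, 43.7, 47.6 and 48.6 CPM in WT saline, 47.2, 46.3, 67.5 and 53.7 in WT isoproterenol, 69.1, 64.3, 65.6 and 56.9 in KO saline, and 19.9, 32.4, 30.2 and 49.3 in KO isoproterenol. KO saline lay wholly above WT saline, the one such case among the 10 genes (3.75% of all genes showed it), yet the difference of 0.56 ± 0.21 had an adjusted p of 0.61 over all genes and passed only when libraries were weighted by their quality (0.53, adjusted p = 0.0347). Under isoproterenol Prdm16 fell in KO by 1.03 on the log2 scale, from a mean of 64.0 ± 5.13 to 32.9 ± 12.2 CPM (SD, n = 4; limma adjusted p = 0.00116), and the WT change of 0.29 ± 0.21 did not pass (adjusted p = 0.391). KO was lower than WT under isoproterenol by -0.76 ± 0.21 (adjusted p = 0.00935), a call that was lost with the 2 groups alone in the fit (0.0589). The responses differed between genotypes by -1.32 ± 0.30 (adjusted p = 0.00763).

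Ebf2 measured 74.3, 86.6, 88.1 and 79.8 CPM in WT saline, 71.5, 75.5, 113 and 109 in WT isoproterenol, 106, 98.1, 108 and 77.1 in KO saline, and 22.1, 53.0, 54.4 and 84.4 in KO isoproterenol. The groups of KO mice overlapped, since KO isoproterenol replicate 4 exceeded KO saline replicate 4. The fall in KO was -1.0 ± 0.30 (adjusted p = 0.0113) and the difference from WT under isoproterenol -0.91 ± 0.30 (adjusted p = 0.0209). Without KO isoproterenol replicate 1 these were -0.63 and -0.53, both still called, and the second was not called without WT isoproterenol replicate 3 (0.0642) or 4 (0.0614). Both lost the call when the fit held only the libraries compared (adjusted p = 0.0613 and 0.0993), and both turned to higher values relative to the pan-adipocyte markers (0.31 and 0.26, neither called), as Prdm16 did (0.28 and 0.41). The medians of all genes under that scaling were 1.31 and 1.18 in the same comparisons.

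Of the ERR genes, Esrra moved the more uniformly. It measured 220.3, 264, 236 and 236 CPM in WT saline, 313, 268, 336 and 354 in WT isoproterenol, 229, 294, 224 and 274 in KO saline, and 49.2, 68.6, 109 and 158 in KO isoproterenol. All 4 WT isoproterenol libraries lay above all WT saline libraries, 1 of 10 regulators against 16.3% of all genes, and all KO isoproterenol libraries lay below every other library of the series. The WT difference of 0.41 ± 0.26 was not called (adjusted p = 0.323), but was with the WT libraries alone in the fit (adjusted p = 0.0176, or 0.0253 with the replicate block) or with quality weights (0.0307). The fall in KO was -1.54 ± 0.26 (adjusted p = 0.000267), KO was lower than WT under isoproterenol by -1.86 ± 0.26 (adjusted p = 9.81e-05), and the responses differed by -1.95 ± 0.37 (adjusted p = 0.00325).

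Esrrg, whose product shares many binding sites with ERRalpha, was far more variable in KO isoproterenol. It measured 33.7, 39.9, 48.5 and 60.2 CPM in WT saline, 25.3, 29.8, 49.6 and 40.7 in WT isoproterenol, 44.9, 34.1, 37.7 and 33.7 in KO saline, and 1.74, 11.5, 17.3 and 39.1 in KO isoproterenol. Replicate 4 of KO isoproterenol lay inside the KO saline range and the others lay below it. The log2 fold change in KO was -1.79 ± 0.63 (adjusted p = 0.0281), a call that was lost without KO saline replicate 1 (0.0623) or KO saline replicate 3 (0.0523), and a value of -0.91 without KO isoproterenol replicate 1. KO against WT under isoproterenol gave -1.70 ± 0.63 (adjusted p = 0.0384), which missed the threshold without WT isoproterenol replicate 2, 3 or 4 or KO isoproterenol replicate 1 or 2 (adjusted p 0.0549 to 0.0969). Both calls were lost with the 2 groups alone in the fit (0.114 and 0.143). In WT the change of -0.34 was called with the replicate block over the WT libraries alone (adjusted p = 0.0426), but not with all libraries in the fit (0.759). The ratio of Esrrg to Esrra did not overlap between the WT groups, 0.151 to 0.256 under saline and 0.0807 to 0.148 under isoproterenol (log2 difference -0.75, exact permutation p = 0.0286, adjusted 0.0762), and in KO the difference was -0.25 (exact permutation p = 0.857).

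Pparg, the master regulator of fat cell formation, measured 372, 403, 342 and 346 CPM in WT saline, 279, 282, 355 and 372 in WT isoproterenol, 303, 485, 296 and 414 in KO saline, and 142, 255, 327 and 335 in KO isoproterenol. Replicate 1 of KO isoproterenol was the lowest of the 16 libraries, and the 2 groups overlapped in every comparison. No comparison passed, with -0.55 ± 0.25 (adjusted p = 0.0785) for isoproterenol in KO. That value was called without KO isoproterenol replicate 3 (adjusted p = 0.0476) or replicate 4 (0.0302).

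Ppara, the receptor for fatty acids that drives their oxidation, showed the largest fold change of the 10. It measured 178, 252, 337 and 335 CPM in WT saline, 87.6, 92.4, 173 and 167 in WT isoproterenol, 305, 323, 188 and 138 in KO saline, and 2.31, 40.3, 23.1 and 90.9 in KO isoproterenol. Both genotypes showed no overlap between saline and isoproterenol, with Cebpa the only other regulator lower in this sense in WT (2 of 10, against 16.6% of all genes). In KO, 5 of 10 regulators were lower without overlap (Ppargc1b, Prdm16, Esrra, Ppara and Cebpa), against 19.3% of all genes. The fall in KO was -3.42 ± 0.77 (adjusted p = 0.00209), or 10.7-fold. The WT change of -1.11 ± 0.77 did not pass (adjusted p = 0.359). The 4 same-numbered WT pairs gave -1.02, -1.45, -0.97 and -1.01. The change was called in a fit of the WT libraries alone, without the replicate block (adjusted p = 0.0168) or with it (0.000125), and with quality weights (0.0298). Without KO isoproterenol replicate 1 the KO value was -2.36 (adjusted p = 0.000399). KO was also lower than WT under isoproterenol, by -2.56 ± 0.77 (adjusted p = 0.014), a value of -1.49 without the same library and a call that was lost with the 2 groups alone in the fit (0.0767). The ratio of Ppara to Pparg ran from 0.332 to 1.0 in KO saline and from 0.0163 to 0.271 in KO isoproterenol, a log2 difference of -2.87 (exact permutation p = 0.0286, adjusted 0.0762), and in WT the difference was -0.92 (exact permutation p = 0.0571, adjusted 0.102).

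**Figure D3:**
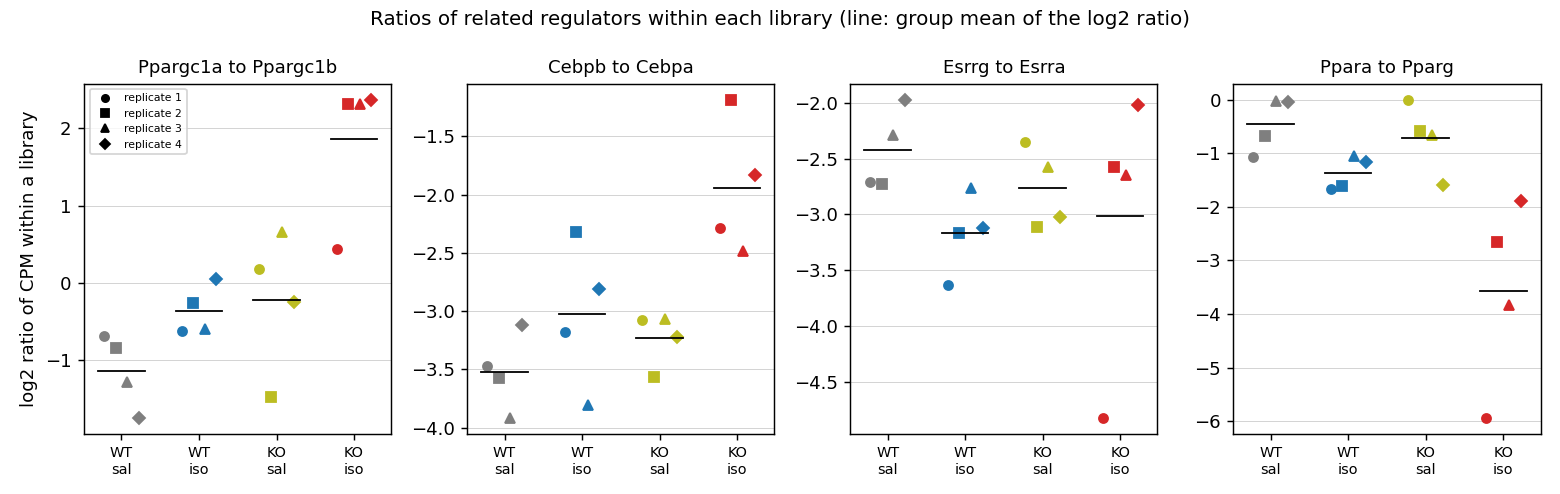
Log2 ratios of 4 pairs of related regulators within each library, by group, with the line at the group mean. In KO isoproterenol the ratio of Ppargc1a to Ppargc1b lies at 0.45 to 2.37 and that of Ppara to Pparg at -5.94 to -1.88.

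Cebpa, which maintains the mature adipocyte, gave the smallest adjusted p of the 10. It measured 1051, 1171, 958 and 1007 CPM in WT saline, 913, 703, 873 and 856 in WT isoproterenol, 991, 1014, 736 and 888 in KO saline, and 219, 197, 284 and 288 in KO isoproterenol. The 4 KO isoproterenol libraries lay within 1.46-fold of each other and far below all libraries of the other groups. The mean went from 907 ± 127 to 247 ± 45.8 CPM (SD, n = 4), a log2 fold change of -1.88 ± 0.18 (limma adjusted p = 1.98e-06). KO was lower than WT under isoproterenol by -1.77 ± 0.18 (adjusted p = 8.67e-06), one of 2 regulators with no overlap there, with Esrra, against 18.3% of all genes. The WT groups did not overlap either, but the WT difference was -0.33 ± 0.18 (adjusted p = 0.237), and the responses differed by -1.56 ± 0.25 (adjusted p = 0.00147).

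Cebpb, the early and cyclic AMP-responsive member of its family, measured 95.1, 98.2, 63.5 and 116 CPM in WT saline, 101, 141, 62.6 and 122 in WT isoproterenol, 118, 85.9, 87.6 and 95.3 in KO saline, and 45.0, 86.8, 50.6 and 81.2 in KO isoproterenol. Both WT groups contained a low replicate 3, and KO isoproterenol overlapped KO saline in replicate 2. The KO change of -0.60 ± 0.27 did not pass (adjusted p = 0.0743), but did without WT isoproterenol replicate 3 (0.0445), KO isoproterenol replicate 2 (0.0393) or KO isoproterenol replicate 4 (0.0414). KO was lower than WT under isoproterenol by -0.69 ± 0.27 (adjusted p = 0.0456), a call that held in 11 of 25 alternative fits. It was lost without any 1 of WT saline replicates 1 and 2, WT isoproterenol replicates 1, 2 and 4, KO saline replicates 2, 3 and 4, and KO isoproterenol replicates 1 and 3 (adjusted p 0.0541 to 0.135). The ratio of Cebpb to Cebpa was 0.119, 0.0847, 0.119 and 0.107 in KO saline and 0.205, 0.440, 0.178 and 0.282 in KO isoproterenol, without overlap, and differed by 1.29 on the log2 scale (exact permutation p = 0.0286, adjusted 0.0762).

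3 of the 10 genes responded differently to isoproterenol in the genotypes by the interaction test, Prdm16, Esrra and Cebpa, each lower in KO, beside 13.8% of all genes called lower and 10.9% higher. All 10 estimates lay below 0, and all but Prdm16, Esrra and Cebpa missed the threshold (adjusted p 0.0574 to 0.807). Leaving out KO isoproterenol replicate 4, the least changed library of its group, gave 7 calls, adding Ppargc1b, Ebf2, Esrrg and Ppara (adjusted p 0.00737 to 0.0412). Over all genes the same omission gave 3000 called lower and 2666 higher, against 2113 and 1674 with all libraries. Leaving out replicate 1 added Ebf2 (0.0466), beside 2108 of all genes called lower and 1668 higher. No estimate relative to the pan-adipocyte markers was called, beside 79 of all genes called lower and 527 higher. That scaling moved the median interaction of all genes to 1.26, from 0.04.

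The KO isoproterenol libraries differed in how many regulators lay below the KO saline range: 10 of 10 in replicate 1, 8 in replicates 2 and 3 each, and 6 in replicate 4, where Ppargc1a lay above it. The geometric mean level of the 10 pan-adipocyte markers stood at 12.1%, 30.7%, 68.2% and 105% of its KO saline value in replicates 1 to 4. In replicate 4, with those markers at 105%, Cebpa stood at 32.0%, Ppara at 40.4%, Esrra at 62.3%, Ppargc1b at 64.6% and Prdm16 at 77.2% of their KO saline geometric means, and Ppargc1a at 389.9%. The summed level of the markers in replicate 4 was 44664 CPM against 25244 to 27522 in KO saline, so the marker level there depends on how they are combined. Set relative to the markers in every library, 2 of 10 regulators were still called lower in KO under isoproterenol, Ppara (-2.11 ± 0.50, adjusted p = 0.00259) and Ppargc1b (-1.19 ± 0.44, adjusted p = 0.0267). Cebpa then gave -0.57 ± 0.38 (adjusted p = 0.193), its own level being nearly constant over libraries in which the markers varied. That scaling moved the median of all genes to 1.31 on the log2 scale in the same comparison, with 8154 genes called higher and 430 lower against 3647 and 3813 before it, so a value near 0 lies below most genes.

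**Figure D4:**
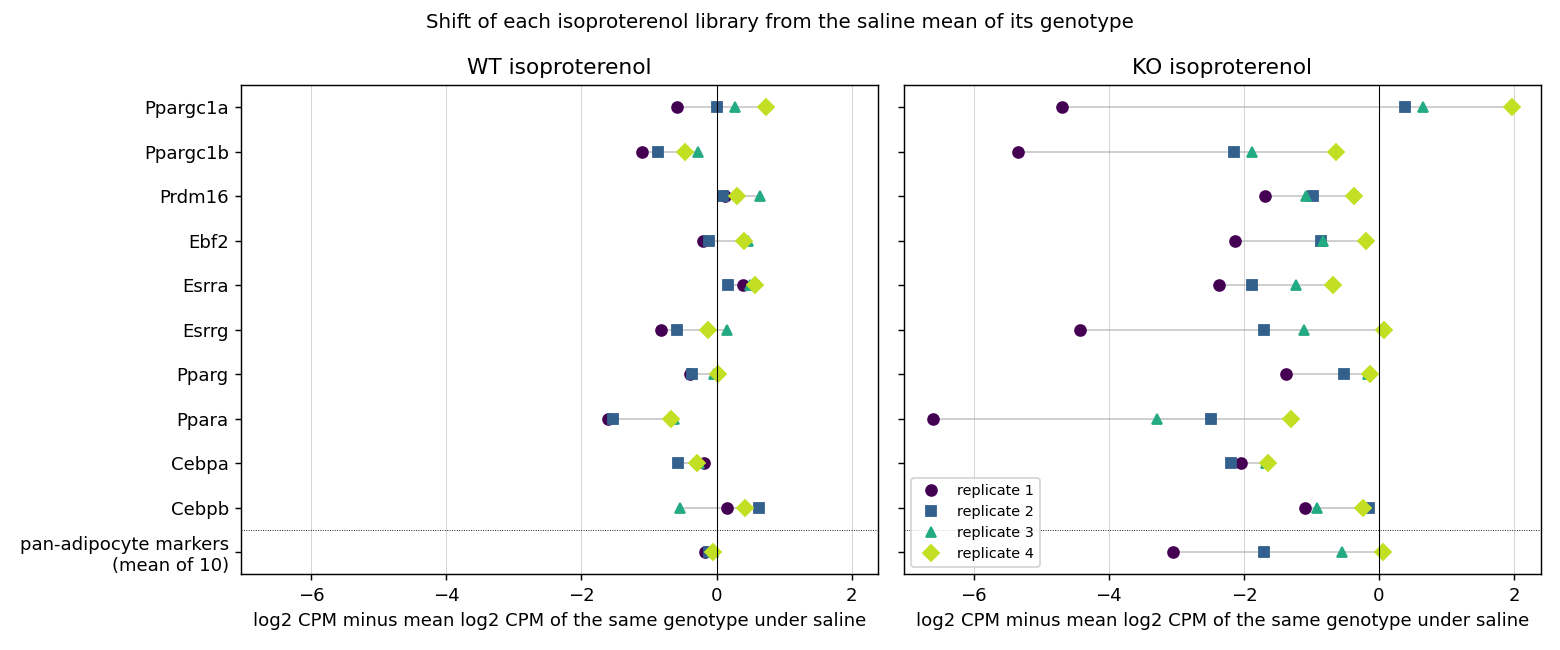
Points give the log2 CPM of each isoproterenol library minus the mean of the saline libraries of its genotype, for each regulator and for the mean of 10 pan-adipocyte markers (below the dotted line), with 1 colour and symbol per replicate. In KO isoproterenol the markers run from -3.05 to 0.06 while Cebpa stays between -2.19 and -1.64.

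Per kilobase of exon, which allows genes to be compared, Cebpa led in WT saline (397 CPM per kb), followed by Pparg (154), Esrra (107), Ppara (77.9), Cebpb (61.9), Ppargc1b (30.8), Ebf2 (14.5), Esrrg (8.03), Ppargc1a (7.99) and Prdm16 (5.08). In KO isoproterenol Pparg led (111), ahead of Cebpa (93.7), Cebpb (43.8) and Esrra (42.9), followed by Ppargc1a (23.1), Ppara (11.1), Ebf2 (9.42), Ppargc1b (7.97), Prdm16 (3.83) and Esrrg (3.07). By these means Ppargc1a stood above Ppargc1b there, the reverse of their order in each of the other groups. The spread was wide, 23.1 ± 21.8 against 7.97 ± 7.08 CPM per kb (SD), so the order need not hold in each library. In WT saline the neighbours Ppara and Cebpb, and Esrrg and Ppargc1a, differed by less than the larger SD of the pair, and in KO isoproterenol all neighbours did except Cebpa and Cebpb.

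Over the 16 libraries the log2 levels of the 45 pairs of regulators had Pearson correlations from 0.03 (Ppargc1a with Cebpa) to 0.99 (Ppargc1b with Ppara), with a median of 0.74. Without the 4 KO isoproterenol libraries the median over 12 libraries was 0.21, and Ppargc1b with Ppara stood at 0.97. These points share libraries and their depth. Among 14278 genes with a mean of at least 1 CPM, the genes whose log2 pattern over the 16 libraries was most like Ppargc1b were Thrb, the thyroid hormone receptor beta (r = 0.98), and Kcnk3, a potassium channel (r = 0.98). For Esrra they were the mitochondrial protein genes Ndufv2, Ndufs4 and Atp5c1 (r = 0.99 each), for Cebpa Tspan18, Dmtn and Gcsh (r = 0.99 each), and for Ppara Josd1 (r = 0.99). The nearest genes to Ppargc1a were Tectb, Gmpr and the peroxisomal fatty acid enzyme Ehhadh (r = 0.91 each), and those to Cebpb reached only 0.85 (Pcdhgb4).

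The partners of these regulators were described from lists chosen with earlier results of these data known, by counts of called genes in KO under isoproterenol, where 23.8% of all genes were called higher and 24.8% lower. Of 10 nuclear receptors that pair with or resemble them, 1 rose and 5 fell, among them Rxrg (-2.25 ± 0.46, adjusted p = 0.00102) and Rxrb (-0.68 ± 0.16, adjusted p = 0.00262), dimer partners of the PPARs. Of 12 further coactivators 0 rose and 2 fell, with a median of -0.04 beside -0.00 over all genes. Against WT under isoproterenol, where 21.6% of all genes were called higher and 23.1% lower, 3 of the 12 were higher, including Pprc1, a further member of the PGC-1 family (1.13 ± 0.24, adjusted p = 0.00152), and 1 was lower. Of 12 corepressors 2 rose and 2 fell. Against WT under isoproterenol 3 of the 12 were higher and 1 was lower, beside 21.6% and 23.1% of all genes. The higher ones included Rbl1 (0.87 ± 0.23, limma adjusted p = 0.00732) and Nrip1, a corepressor of brown fat genes (1.06 ± 0.41, adjusted p = 0.0439). By library totals 7 coactivators and 5 corepressors were higher in that comparison and none was lower, a scaling that moved the median of all genes to 0.27. Relative to the pan-adipocyte markers in KO under isoproterenol, where the median of all genes was 1.31, the counts turned to 4 higher and 1 lower for the nuclear receptors, 8 and 0 for the coactivators and 7 and 0 for the corepressors.

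Among 17 other DNA-binding regulators 3 rose and 4 fell in KO under isoproterenol, beside 23.8% and 24.8% of all genes. Cebpd, the delta member of the C/EBP family, rose from 7.68 to 26.1 CPM (log2 fold change 1.81 ± 0.26, adjusted p = 6.29e-05), while Ebf3, a relative of Ebf2, fell (-1.01 ± 0.21, adjusted p = 0.00131) and so did Atf2, a mediator of the cyclic AMP signal to Ppargc1a (-1.06 ± 0.19, adjusted p = 0.000461). Of 12 nuclear genes that control mitochondrial gene expression 2 rose and 6 fell, beside the same shares of all genes. Nrf1, a classic partner of PGC-1alpha, rose (0.58 ± 0.12, adjusted p = 0.0014), whereas the mitochondrial transcription factor gene Tfb2m (-1.15 ± 0.30, adjusted p = 0.00537) and the helicase gene Twnk (-0.94 ± 0.27, adjusted p = 0.011) fell. Relative to the pan-adipocyte markers these lists read 10 higher and 0 lower, and 5 higher and 0 lower, beside 8154 and 430 of all genes.

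Among known target genes of the regulators, the ERR targets had the largest share called lower. Over all genes 24.8% were called lower and 23.8% higher in KO under isoproterenol. In KO against WT under isoproterenol these shares were 23.1% and 21.6%. Of 12 mitochondrial ERR target genes, 11 fell in KO under isoproterenol and 11 were lower in KO than in WT under isoproterenol, with Sdhb at -2.35 ± 0.37 (adjusted p = 0.000148) and Uqcrc1 at -2.25 ± 0.44 (adjusted p = 0.000801) in KO under isoproterenol. Without KO isoproterenol replicate 1, an alternative chosen after seeing the data, 8 of the 12 fell, beside 3581 of all genes called lower. Relative to the pan-adipocyte markers 7 fell (also chosen after seeing the data), beside 430 of all genes. Of 15 PPARA target genes of fatty acid oxidation 7 fell and 1 rose: Acaa2 fell (-2.95 ± 0.58, adjusted p = 0.000755), while Cpt1a, the carnitine transferase isoform typical of liver, rose from 31.4 to 182 CPM (2.54 ± 0.22, adjusted p = 9.04e-07). Of 12 brown fat target genes 7 fell in KO, with Cox8b at -3.63 ± 0.72 (adjusted p = 0.000855). In WT 1 of those 12 was called higher, Elovl3, from 4.16 to 600.0 CPM (7.44 ± 1.25, adjusted p = 0.0012), beside 7.60% of all genes. The median log2 fold change of the 12 in WT was 0.93. Their summed level, Ucp1 included, ran from 16272 to 29365 CPM in WT isoproterenol against 8271 to 11471 in WT saline. Ucp1 itself was not called in WT, although its 2 WT groups did not overlap. Of 16 PPARG and C/EBP target genes 8 fell and 1 rose in KO, and 8 of the 10 pan-adipocyte markers are also on that list. The insulin-responsive glucose transporter gene Slc2a4 fell (-2.86 ± 0.42, adjusted p = 8.8e-05) and the only gene of the list that rose was Retn, which encodes resistin and was singled out after its value was seen (1.5 ± 0.50, adjusted p = 0.0209). Relative to the pan-adipocyte markers that list read 5 higher and 1 lower, the brown fat targets 2 and 6, and the PPARA targets 3 and 5. That scaling called 8154 of all genes higher and 430 lower in KO under isoproterenol.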

How the data were processed

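Poly(A) RNA of 16 libraries (TruSeq Stranded mRNA, single reads) was measured. The authors deposited log2 CPM per gene, and per the submitters' processing notes STAR, limma and the mm39 build were used, with versions not given in the sources used here. The values equal log2 of CPM computed from reads plus 0.5 and a scaled library size, and whole reads were recovered for 100% of values (tolerance 1e-06 reads); 1 read was worth 0.0476 to 0.115 CPM, and that size was 0.854 to 1.25 times the listed total. Groups follow the labelled genotype and treatment, since the treatment text on saline libraries describes isoproterenol. Column headers of 3 KO saline libraries carry another replicate number than their titles, which were used. Gene symbols and exon lengths come from GENCODE M21 (GRCm38), which named 15320 of 15350 identifiers.

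Values were fitted in limma 3.58.1 (R 4.3.3) with 4 group means, empirical Bayes moderation with trend and robust settings, and Benjamini-Hochberg adjustment over all genes. The fit was tested on simulated data drawn with 1 dispersion for all groups. That simulation does not cover the wider spread of KO isoproterenol, where Ppargc1a ranged 100.4-fold against 1.36-fold in WT saline. Ratios were tested by exact permutation. The 10 genes, the lists and the tests were chosen with earlier results of these data known. Named from each list were up to 4 called genes per comparison with the largest fold change and no overlap, and for each regulator the 3 most correlated genes. Not every gene that this rule names is reported here. Alternatives were library totals, scaling to pan-adipocyte markers, the compared groups alone, a replicate block (also in WT only), voom and library quality weights, other moderation, prior count and filter settings, and leaving out each library. Deviations of same-numbered libraries from their group means correlated at 0.210 to 0.535 between the WT groups and 0.0329 to 0.239 between the KO groups. WT replicate 1 correlated more with another number (up to 0.371) than with its own (0.210). A pairing of the WT numbers by the data is thus not established. In KO the numbers were those of the titles, which differ from 3 headers, so pairing there cannot be judged.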

Additional observations from a re-analysis of the deposited data

Results flagged for a closer look

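The isoproterenol response differed between the genotypes for 3 regulators by limma's interaction test. The KO response minus the WT response was -1.95 on the log2 scale for Esrra, the gene of ERRalpha, -1.56 for Cebpa and -1.32 for Prdm16. Under scaling to the pan-adipocyte markers none of these was called, but only 79 of all 15350 genes were called lower there. Dixon's criterion marked no library in any of the 40 groups of values tested (10 genes in 4 groups of 4 libraries). With only 4 values per group it can hardly mark any, so it cannot show that no library stood apart. It passed Ppargc1a in KO isoproterenol, at 3.40 CPM in replicate 1 against 114, 137 and 341 in replicates 2 to 4. Leaving out that replicate turned the KO log2 fold change of Ppargc1a from -0.42 to 1.0.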

How the results depend on the processing

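Relative to the pan-adipocyte markers the number of the 10 genes called lower was 2 in KO under isoproterenol, 1 in KO against WT under isoproterenol and 0 for the interaction. Over all genes 430, 419 and 79 were called lower in these comparisons, and the median log2 fold changes moved to 1.31, 1.18 and 1.26. That scaling reversed the KO isoproterenol values of Ppargc1a (0.89), Prdm16 (0.28), Ebf2 (0.31), Pparg (0.76) and Cebpb (0.71), the KO against WT values under isoproterenol of Prdm16 (0.41), Ebf2 (0.26), Pparg (0.82) and Cebpb (0.48), the interactions of Ppargc1a (0.69), Ebf2 (0.0716), Pparg (0.86) and Cebpb (0.45), and Pparg under saline (-0.0389). Library totals gave 5 genes lower in KO than WT under isoproterenol and reversed Ppargc1a in WT (-0.00694) and Pparg under saline (-0.0315). With only the groups compared in the fit, 1 gene was called higher and 2 lower in WT, 4 lower in KO and 2 lower in KO than WT under isoproterenol. Such a fit holds fewer samples and takes the spread from those groups alone. Over all genes it called 2501 higher and 2422 lower in WT, against 1167 and 1379 with all libraries. In KO it called 2681 lower against 3813, and in KO against WT under isoproterenol 2458 against 3542. Quality weights called 1 higher and 1 lower in WT, 1 higher in KO under saline and 7 lower for the interaction. Over all genes the weights called 2669 higher and 2789 lower in WT, 317 higher in KO under saline and 3173 lower for the interaction. The same weights reversed Ppargc1a in KO (0.24), Pparg under saline (-0.10) and the interactions of Ppargc1a (0.0407) and Pparg (0.0349). In KO isoproterenol the weights were 0.167, 0.314, 3.37 and 0.263 for replicates 1 to 4. Weighted estimates that involve that group, the interaction included, therefore rest mostly on replicate 3. Except where noted, the cause was not tested.

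Leaving out 1 library in turn, 0 to 1 genes were higher and 4 to 8 lower in KO than WT under isoproterenol (5 without WT isoproterenol replicate 3, 4 without replicate 4), and 3 to 7 lower for the interaction. Values that crossed 0 ranged over -0.10 to 0.34 for Ppargc1a and -0.00688 to 0.40 for Cebpb in WT, -1.22 to 0.999 for Ppargc1a in KO, -0.30 to 0.0511 for Ppargc1b, -0.13 to 0.11 for Pparg and -0.10 to 0.19 for Cebpb under saline, and -0.55 to 1.66 for Ppargc1a between genotypes under isoproterenol. The Ppargc1a interaction ranged over -1.32 to 0.89. The log2 ratio of Ppara to Pparg under saline ranged over -0.49 to 0.0394, and that of Esrrg to Esrra over -0.59 to 0.35 in KO and -0.18 to 0.76 between genotypes under isoproterenol.

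The replicate block changed 1 of 50 calls, Cebpb in KO under isoproterenol (-0.60, adjusted p = 0.0417). Blocking WT only, an alternative chosen after seeing the data, changed no call with all libraries in the fit, and with the WT libraries alone the replicate block gave 1 gene higher and 3 lower in WT. Voom weights, a prior count of 3 reads and a filter on low reads changed 0 of 50 calls. Depth limits mainly KO isoproterenol replicate 1, where Esrrg, Ppara, Ppargc1b and Ppargc1a rest on 36, 48, 52 and 71 reads.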
